A study of Mus musculus with 6 samples.

Results

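The genes described here are 10 genes of protein folding in the endoplasmic reticulum (ER) and of the unfolded protein response (UPR), namely Hspa5, Hsp90b1, Calr, Canx, Pdia3, Pdia4, Pdia6, Dnajb9, Xbp1 and Herpud1. They were taken by symbol from the 17060 genes with a read in any library, and all 10 were listed in every library and passed the filter on low counts, as did 12306 genes in all. The cells were lineage-negative bone marrow cells of wild-type mice, a fraction rich in progenitors, grown in a culture with EPO in which they become erythroblasts. RNA was sequenced from 3 samples given the vehicle DMSO (labeled NC) and 3 given NUP-17d, a small-molecule inhibitor of pleckstrin-2 (Plek2), each for 48 hours, and both groups shared the genotype and the medium. The labels give neither the age of the mice nor the dose, and they do not say whether the samples came from separate animals or cultures, so p-values measure the spread between these samples, which may be technical.

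The ER takes in newly made secreted and membrane proteins and folds them. Chaperones hold unfolded chains, lectin chaperones retain glycoproteins until they fold, and disulfide isomerases form and rearrange disulfide bonds. When unfolded protein builds up, the sensors IRE1, PERK and ATF6 start the UPR: IRE1 splices Xbp1 mRNA into the form that encodes an active transcription factor, ATF6 releases another, and PERK slows translation while raising ATF4. Maturing erythroblasts devote much of their translation to cytosolic hemoglobin, but they still pass receptors, transporters and membrane glycoproteins through the ER.

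Many UPR genes carry short stress elements ahead of the transcript start, and these letters are shown first for the members that hold them. All 10 members matched the RefSeq promoter table (GRCm38.p6), which spans 250 bases before to 50 bases after each start. The ER stress element was searched as CCAAT, 9 bases of any kind and CCACG on both strands, and it was found in 5 of 10 members against 0.119% of all 32851 promoters of that length and 0.119% of the 12632 promoters of tested genes. The elements searched were already known from UPR genes and the members count among these promoters, so such shares are descriptions only. In the windows below the matched letters are in capitals, 5′ to 3′ on the strand of the gene, and a match to the opposite strand reads CGTGG first and ATTGG last. The Hspa5 window (chr2:34771913-34772063, plus strand) has the element 65 bases before the start and, farther out, the XBP1 site TGACGTG, which 2.01% of all promoters and 2.79% of those of tested genes hold on either strand.
Hspa5: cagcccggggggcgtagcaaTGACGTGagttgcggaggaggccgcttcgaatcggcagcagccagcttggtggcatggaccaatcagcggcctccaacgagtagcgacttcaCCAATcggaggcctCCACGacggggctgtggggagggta
Hsp90b1 (chr10:86705513-86705676, minus strand) held the element 212 bases before the start and again, on the opposite strand, 107 bases before it.
Hsp90b1: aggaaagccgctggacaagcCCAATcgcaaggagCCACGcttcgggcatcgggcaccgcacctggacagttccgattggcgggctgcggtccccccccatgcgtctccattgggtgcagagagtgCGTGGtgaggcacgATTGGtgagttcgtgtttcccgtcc
The lectin chaperones Calr (chr8:84847055-84847113, minus strand) and Canx (chr11:50325780-50325838, minus strand) and the isomerase Pdia6 (chr12:17266471-17266529, plus strand) each held 1 copy, which in Calr lay on the opposite strand.
Calr: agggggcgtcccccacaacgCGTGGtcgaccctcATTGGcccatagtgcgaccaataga
Canx: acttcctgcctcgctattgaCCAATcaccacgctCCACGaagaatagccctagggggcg
Pdia6: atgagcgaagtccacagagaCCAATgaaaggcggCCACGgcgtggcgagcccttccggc
Herpud1 (chr8:94386297-94386407, plus strand) held none of these but had the second ER stress element, searched as ATTGG, 1 base and CCACG, 52 bases before its start, which 0.037% of all promoters and 0.063% of those of tested genes share. It also held the C/EBP-ATF site TGATGCAA on the opposite strand, found in 0.895% and 0.641% of them.
Herpud1: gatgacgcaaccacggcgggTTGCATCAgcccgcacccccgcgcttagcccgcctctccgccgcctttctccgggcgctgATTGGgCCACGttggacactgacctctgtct
No full element was found in the windows of Pdia3, Pdia4, Dnajb9 and Xbp1. The CCACG core alone, which lies within both ER stress elements, was present in 8 of 10 member windows, in 32.8% of all windows and in 46.1% of those of tested genes.

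**Figure D1:**
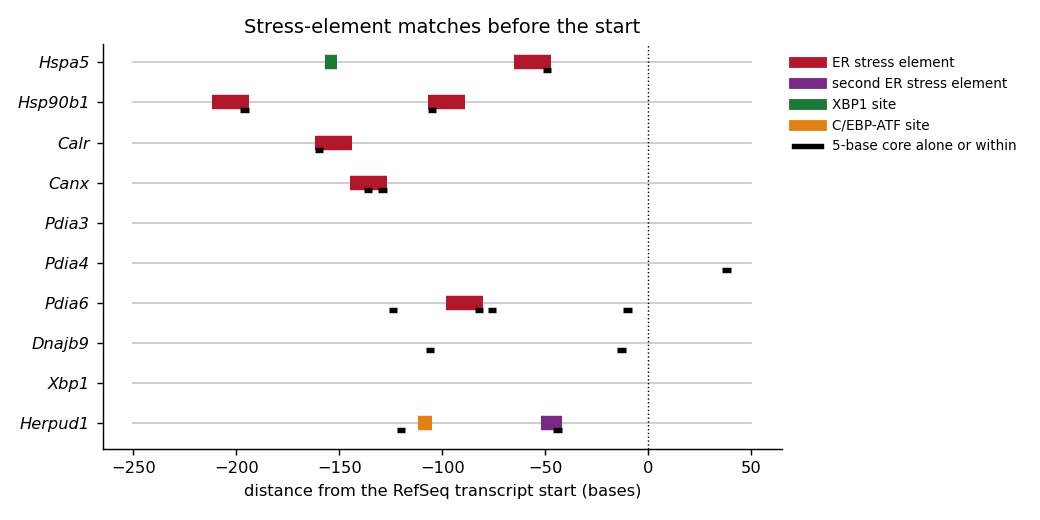
Matches to the stress elements in the promoter window of each member; the horizontal axis is the distance from the RefSeq transcript start in bases and each row is a gene. Red bars mark the ER stress element in 5 members, the purple bar the second element in Herpud1, green the XBP1 site, orange the C/EBP-ATF site and black bars the 5-base core.

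The 6 libraries held 20076409 to 20419018 expected counts each, and the members had between 861 and 21063 counts in a library. Hemoglobin genes took 18.3% to 20.3% of the counts with DMSO and 11.8% to 13.1% with NUP-17d. Levels are therefore given as CPM, the counts scaled to a fixed library size, with that size corrected for composition by TMM, with factors of 0.887 to 0.930 for DMSO and 1.08 to 1.11 for NUP-17d. This choice sets the direction of small changes: the median log2 fold change of all tested genes was 0.01 with TMM and 0.28 when counts were divided by library totals alone. With TMM, 18.9% of all tested genes were called lower and 16.4% higher at an adjusted p under 0.05, 35.3% in all, whereas with totals alone 5.36% were called lower and 68.7% higher. Only relative abundance can be read, and in bulk RNA fewer cells of a type and less RNA per cell cannot be told apart.

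In the cultures given NUP-17d, 4 of the 10 genes were lower, namely Herpud1, Dnajb9, Calr and Xbp1, by 12.7% to 15.8%, where 18.9% of all tested genes were. None was higher, where 16.4% of all tested genes were. The other 6, namely Hspa5, Hsp90b1, Canx and the 3 disulfide isomerases, had log2 fold changes within 0.1 of 0 and were not called. The median log2 fold change was -0.07 over the 10 members and 0.01 over all tested genes. The CPM ranges of the groups did not overlap in 6 of the 10 members, which is also true of 46.0% of all tested genes. With library totals alone none of the 4 was called lower and their signs turned positive. Under that scaling 6 members were called higher, where 68.7% of all tested genes were. Measured against the median of all genes the order was the same under both scalings, and Calr lay 0.21 below it on the log2 scale in each. That sameness was fixed in advance, since a change of library scaling shifts all genes by nearly the same amount.

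**Figure D2:**
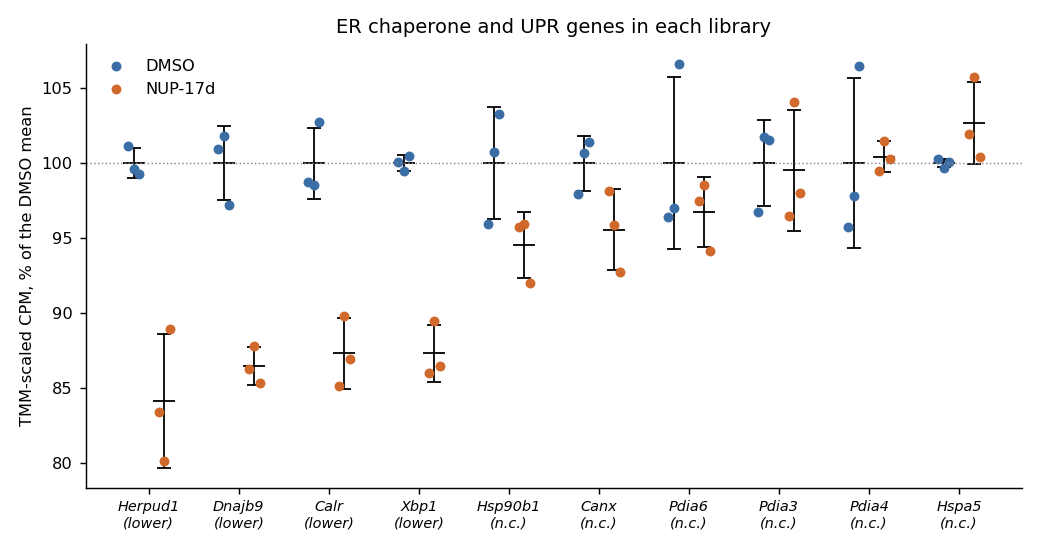
TMM-scaled CPM of each member in each library, as a percentage of the mean of the 3 DMSO libraries; points are libraries, horizontal bars are group means and error bars are SDs (n = 3 per group), and n.c. means not called. The NUP-17d points of Herpud1, Dnajb9, Calr and Xbp1 all lie below their DMSO points, and those of Pdia3, Pdia4, Pdia6 and Canx overlap with them.

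Hspa5 (chr2:34772090-34776529) encodes BiP, the Hsp70 chaperone of the ER lumen, which also binds the lumenal domains of the UPR sensors. It had 588, 585 and 587 CPM in DMSO libraries 1, 2 and 3 and 598, 620 and 589 CPM in NUP-17d libraries 1, 2 and 3. The NUP-17d values all sat above the DMSO values, but the gap between the nearest libraries was smaller than the spread among the treated ones. The means were 587 ± 1.60 and 603 ± 16.1 CPM (SD, n = 3 each), a log2 fold change of 0.04 with a standard error of 0.03 (edgeR, adjusted p = 0.409). The promoter with both the ER stress element and the XBP1 site thus belonged to a member that was not called.

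Hsp90b1 (chr10:86690841-86705444) encodes GRP94, the Hsp90 of the ER, which folds integrins and Toll-like receptors among others. Its levels were 460.0, 483 and 495 CPM with DMSO and 459, 460.0 and 441 CPM with NUP-17d. DMSO library 1 lay just above the highest NUP-17d library, so the groups touched without overlapping. The log2 fold change was -0.08 with a standard error of 0.04 (edgeR, adjusted p = 0.0818). Without DMSO library 1 it was -0.11 and passed the threshold (edgeR, adjusted p = 0.0234).

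Calr (chr8:84842088-84846931) encodes calreticulin, the soluble lectin chaperone, whose human counterpart is mutated in some myeloproliferative neoplasms. It was the most abundant member, with 1039, 1036 and 1080.1 CPM in the DMSO libraries and 896, 944 and 915 CPM in the NUP-17d libraries. Every treated library was below every control library. The means were 1052 ± 24.8 and 918 ± 24.6 CPM (SD, n = 3 each), and the log2 fold change of -0.20 (standard error 0.04) passed the threshold (edgeR, adjusted p = 7.54e-05).

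Canx (chr11:50293957-50325673) encodes calnexin, the membrane-bound lectin chaperone that binds the same kind of glycans as calreticulin. It had 354, 364 and 366 CPM with DMSO and 355, 346 and 335 CPM with NUP-17d, and the highest treated library lay within the DMSO range. The log2 fold change was -0.07 with a standard error of 0.03 (edgeR, adjusted p = 0.147). Pdia3 (chr2:121413902-121438687) encodes ERp57, the isomerase that works with both lectin chaperones. Its DMSO libraries had 373, 392 and 392 CPM and its NUP-17d libraries 372, 402 and 378 CPM. Those groups overlapped, and the log2 fold change was -0.01 with a standard error of 0.04 (edgeR, adjusted p = 0.900). The 3 genes of the lectin cycle thus did not share a call, since Calr was lower and Canx and Pdia3 were not called; whether their changes differ was not tested.

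Pdia4 (chr6:47796141-47813512) encodes ERp72, a disulfide isomerase found in complexes with BiP. It had 63.1, 64.4 and 70.1 CPM with DMSO and 65.5, 66.9 and 66.0 CPM with NUP-17d. All treated libraries lay inside the DMSO range, and the log2 fold change was 0.01 with a standard error of 0.04 (edgeR, adjusted p = 0.929). Pdia6 (chr12:17266589-17284785) encodes P5, an isomerase that also acts on the sensor IRE1. It had 146, 147 and 161 CPM with DMSO and 147, 149 and 142 CPM with NUP-17d. DMSO library 3 was the highest for both isomerases. For Pdia6 the log2 fold change was -0.05 with a standard error of 0.04 (edgeR, adjusted p = 0.373).

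Dnajb9 (chr12:44205897-44210068) encodes ERdj4, a J-domain partner of BiP that is induced through XBP1. It had 48.0, 48.4 and 46.3 CPM in the DMSO libraries and 41.1, 41.8 and 40.6 CPM in the NUP-17d libraries, with no overlap. The log2 fold change was -0.21 with a standard error of 0.04 (edgeR, adjusted p = 0.000531). Dnajb9 was also the member with the fewest counts, at most 932 in a library.

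Herpud1 (chr8:94386429-94395371) encodes a membrane protein with a ubiquitin-like domain that works in ER-associated degradation (ERAD), the disposal of misfolded ER proteins. It had 104, 102 and 102 CPM with DMSO and 85.6, 82.3 and 91.4 CPM with NUP-17d. The treated libraries were all lower, and they were spread more widely than the controls, with a coefficient of variation of 5.28% against 0.979%. Its fall was the largest among the members, with a log2 fold change of -0.25 and a standard error of 0.04 (edgeR, adjusted p = 2.06e-05).

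Xbp1 (chr11:5520641-5525993) encodes the transcription factor of the IRE1 branch. It had 165, 164 and 166 CPM with DMSO and 142, 148 and 143 CPM with NUP-17d, and the groups were far apart compared with the spread within each. The log2 fold change was -0.20 with a standard error of 0.03 (edgeR, adjusted p = 6.56e-05). These values count all Xbp1 mRNA. The spliced and unspliced forms differ by a short intron and are not separated in a gene-level count, so splicing was not measured. The deposited average transcript length, which shifts between libraries when the 2 listed Xbp1 transcripts are used in other proportions, was 2255.5 to 2259.4 bases with DMSO and 2254.2 to 2259.9 bases with NUP-17d, and these ranges overlapped.

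**Figure D3:**
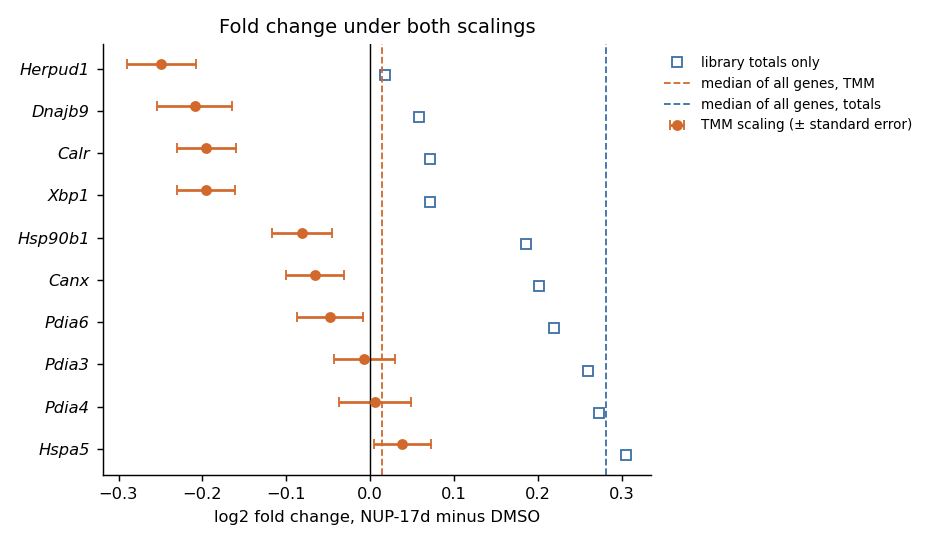
Log2 fold change of each member, NUP-17d minus DMSO, with TMM scaling (filled circles, error bars are standard errors) and with library totals only (open squares); dashed lines are the medians of all tested genes under each scaling. Herpud1, Dnajb9, Calr and Xbp1 lie farthest below the median of all genes under both, although their squares are right of 0. A change of scaling shifts all genes by nearly the same amount.

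A ratio between members of the same library carries no library scaling at all. Each of the other 9 members was divided by Hspa5 on the FPKM scale, a comparison chosen after the values were seen, with Hspa5 being the member with the highest fold change. That choice fixes the direction of the mean ratios and also favors groups that do not overlap. Canx and Pdia6 overlapped in CPM but not as ratios to Hspa5. In 7 of the 9 the groups did not overlap, and 27.2% of all other tested genes divided by Hspa5 were apart and lower. Since Hspa5 was picked among the members by its values, these shares are not on equal terms. For Xbp1 the ratio was 0.317, 0.317 and 0.318 in the DMSO libraries and 0.267, 0.268 and 0.274 in the NUP-17d libraries. For Calr it was 2.32, 2.33 and 2.42 with DMSO and 1.97, 1.998 and 2.04 with NUP-17d. The ratios of Pdia3 and Pdia4 overlapped. These ratios show unequal levels of the members relative to Hspa5, not which of them moved, and with 3 against 3 libraries an exact permutation test cannot go below p = 0.1.

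Between genes, levels were compared per transcript length, as the deposited FPKM divided by the TMM factor. With DMSO, Calr came first at 538 ± 12.7, followed by Hspa5 at 228 ± 0.511, Hsp90b1 at 172 ± 6.45, Pdia3 at 143 ± 4.15 and Canx at 82.8 ± 1.57 (SD, n = 3 each). Below them stood Xbp1 at 72.5 ± 0.306, Pdia6 at 70.6 ± 4.04, Herpud1 at 52.2 ± 0.489, Dnajb9 at 25.4 ± 0.621 and Pdia4 at 24.9 ± 1.42. Calr was 21.6 times as high as Pdia4 and stood above 99.1% of all tested genes, and Pdia4 stood above 77.9%. Neighbors in this order had separate ranges except Xbp1 with Pdia6 and Dnajb9 with Pdia4. With NUP-17d those 2 pairs changed places, with Pdia6 at 68.4 ± 1.67 above Xbp1 at 63.4 ± 1.35 and Pdia4 at 25.1 ± 0.251 above Dnajb9 at 22.0 ± 0.323, and all neighbors had separate ranges.

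**Figure D4:**
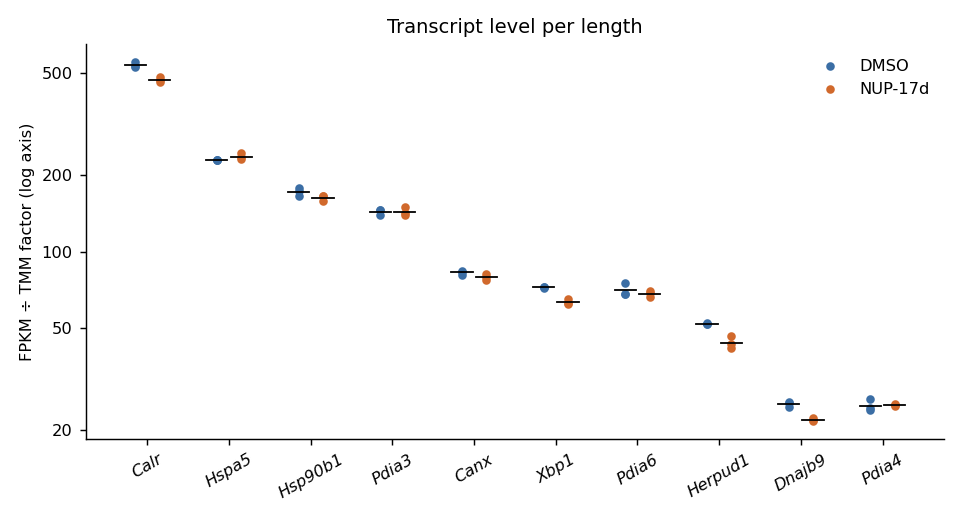
Level per transcript length of each member, as FPKM divided by the TMM factor on a log axis, in order of the DMSO mean; points are libraries and black lines are group means (n = 3 per group). Calr leads in both groups, and the order of Xbp1 and Pdia6, and of Dnajb9 and Pdia4, differs between them.

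The next list holds the UPR sensors and the factors around them. Of its 15 tested genes, 3 were lower and 1 was higher, where 18.9% and 16.4% of all tested genes were. The median of the log2 fold changes was -0.02. Ern1, which encodes IRE1, the kinase and nuclease that splices Xbp1 mRNA, had 165, 149 and 145 CPM with DMSO and 145, 126 and 129 CPM with NUP-17d. Its lowest DMSO library lay just above its highest NUP-17d library, and its log2 fold change of -0.20 (standard error 0.05) passed the threshold (edgeR, adjusted p = 0.00208). Tmbim6, an ER membrane protein that restrains IRE1, fell by 0.18 on the log2 scale, and Atf6, the sensor that is cut to release a transcription factor, fell by 0.12 with overlapping groups. The Atf6 call was lost without DMSO library 1, DMSO library 2 or NUP-17d library 3, where edgeR gave adjusted p = 0.169, 0.0797 and 0.107. Atf6b, its paralog, rose by 0.13 with TMM but was not called by DESeq2 (adjusted p = 0.0591) or, by edgeR, without NUP-17d library 2 (adjusted p = 0.0616), and Eif2ak3, which encodes PERK, had a log2 fold change of 0.05 (edgeR, adjusted p = 0.534). With library totals alone Ern1, Tmbim6 and Atf6 had positive log2 fold changes of 0.07, 0.08 and 0.15.

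The genes downstream of PERK and ATF4 were mostly lower. Of 12 tested genes 10 were lower and 1 was higher, where 18.9% and 16.4% of all tested genes were. The median was -0.25 on the log2 scale. With library totals alone 5 were lower and 4 higher, where 5.36% and 68.7% of all tested genes were. Ppp1r15a, which encodes GADD34, the phosphatase subunit that reverses the translational block set by PERK and other eIF2α kinases, had 2414, 2260.3 and 2262 CPM with DMSO and 1414, 1399 and 1467 CPM with NUP-17d. That was a log2 fold change of -0.70 with a standard error of 0.04 (edgeR, adjusted p = 4.32e-14), and it kept its sign with library totals, at -0.43. The transcription factors Cebpg and Atf5 fell by 0.40 and 0.42, and Atf4 itself fell by 0.26, from 512 ± 10.01 to 428 ± 6.97 CPM (SD, n = 3 each). Ddit3, which encodes the stress factor CHOP, fell by 0.10, and Atf3 rose by 0.35. The Ddit3 call was lost without DMSO library 1, DMSO library 2, NUP-17d library 1 or NUP-17d library 2, where edgeR gave adjusted p = 0.0932, 0.0728, 0.0854 and 0.0970. With library totals alone Atf4 was at 0.01 and Ddit3 at 0.16. These genes also answer to other eIF2α kinases, among them the heme-regulated kinase of erythroid cells, so the list is not particular to the ER.

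Of 39 other ER folding factors tested, 5 were higher and 1 was lower, where 16.4% and 18.9% of all tested genes were, and the median of their log2 fold changes was 0.02. Prdx4, a peroxiredoxin of the ER lumen, fell by 0.25, and its change was 0.02 with library totals. Txndc12, a thioredoxin-like protein of the ER, rose by 0.34. Cnpy3, a helper of GRP94 in folding Toll-like receptors, rose by 0.21, and Selenom, a selenoprotein of the ER with few reads (2.43 to 4.40 CPM), rose by 0.56.

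ERAD genes moved in both directions. Of 29 tested genes 9 were lower and 4 were higher, where 18.9% and 16.4% of all tested genes were. The median was -0.05 on the log2 scale. With library totals alone 2 were lower and 24 higher, where 5.36% and 68.7% of all tested genes were. Yod1, a deubiquitinase that acts with the ATPase VCP, had 108, 100.4 and 107 CPM with DMSO and 62.2, 56.8 and 57.5 CPM with NUP-17d. Its log2 fold change was -0.84 with a standard error of 0.04 (edgeR, adjusted p = 1.96e-14). The ubiquitin ligase Rnf139 fell by 0.38 and the channel component Derl1 by 0.31. By contrast Edem2, which trims mannose from misfolded glycoproteins, the lectin Os9 and the ligase adaptor Sel1l rose by 0.22, 0.17 and 0.16. Yod1, Rnf139 and Derl1 were also below 0 with library totals, at -0.57, -0.11 and -0.05.

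Genes of translocation and N-glycosylation had 6 lower and 3 higher among 36 tested, and a median of 0.01 on the log2 scale. The share lower was 16.7%, near the 18.9% of all tested genes, of which 16.4% were higher. Sec62, a partner of the Sec61 channel, had 314, 301 and 306 CPM with DMSO and 220.2, 217 and 212 CPM with NUP-17d, and its log2 fold change was -0.50 with a standard error of 0.03 (edgeR, adjusted p = 4.44e-12). Srp14 of the signal recognition particle fell by 0.36 and the channel subunit Sec61g by 0.31. Krtcap2, a subunit of the oligosaccharyltransferase, and Spcs3 of the signal peptidase rose by 0.30 and 0.12, and Tram2, with 1.40 to 2.85 CPM, rose by 0.55 but was not called by DESeq2 (adjusted p = 0.136). By edgeR the Tram2 call was lost without DMSO library 1 or 3 or NUP-17d library 1 or 3 (adjusted p = 0.145, 0.162, 0.174 and 0.0524), and that of Spcs3 without NUP-17d library 2 (adjusted p = 0.0513).

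**Figure D5:**
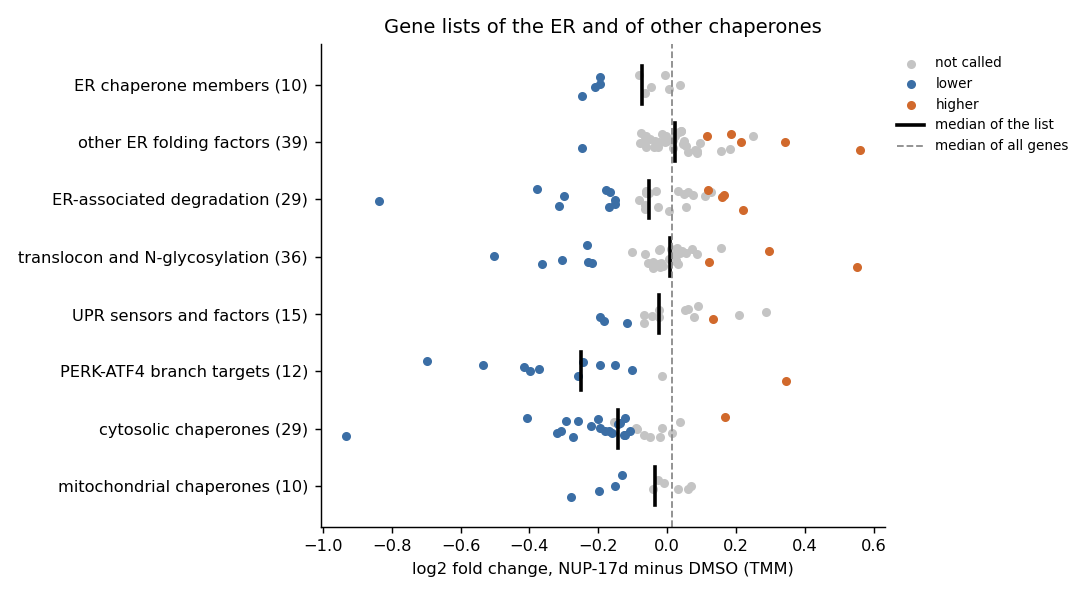
Log2 fold change with TMM of every tested gene in the members, in 5 further lists of ER and UPR genes and in the cytosolic and mitochondrial chaperones, with the number tested in brackets; blue is called lower, orange called higher, gray not called, black bars are list medians and the dashed line is the median of all tested genes. The PERK-ATF4 branch targets and the cytosolic chaperones have their medians farthest to the left, at -0.25 and -0.14.

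Outside the ER, 19 of 29 cytosolic chaperone genes were lower and 1 was higher (median -0.14 on the log2 scale). Of the mitochondrial ones 4 of 10 were lower and none higher, with a median of -0.03. Among all tested genes 16.4% were higher. Against the 18.9% of all tested genes that were lower, the share was 4 of 10 for the members, 2.56% for the other ER folding factors, 31.0% for ERAD, 16.7% for translocation and glycosylation and 3 of 15 for sensors. It was 83.3% for PERK-ATF4 targets, 65.5% for cytosolic chaperones and 4 of 10 for mitochondrial ones. The lists were chosen with results of these data known, so these shares are descriptions.

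Among the 37 genes with a full ER stress element in a listed promoter, 15 were tested, 5 of them members, and the list was drawn after the search. Of the 15, Calr and Syvn1, the ERAD ubiquitin ligase HRD1, were lower, Acacb, an acetyl-CoA carboxylase, was higher at 0.53 to 1.49 CPM, and 12 were not called. Among all tested genes 18.9% were lower and 16.4% higher. The median log2 fold change of the 15 was -0.05. Dnajc3, a J-domain chaperone of the ER lumen, had 75.8, 80.3 and 77.5 CPM with DMSO and 78.0, 74.7 and 74.9 CPM with NUP-17d. Creld2, an ER protein commonly induced by the UPR, had 20.6, 23.6 and 22.4 CPM with DMSO and 21.4, 20.3 and 22.3 CPM with NUP-17d. Neither was called, and their groups overlapped.

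Markers of several cell types moved with the groups, and their part in the values above was not tested. The counts of called markers stand beside 18.9% lower and 16.4% higher among all tested genes. All 12 erythroblast markers were present in every library, with a summed level of 24738 to 26598 CPM with DMSO and 15363 to 16276 CPM with NUP-17d, and all 12 were lower, by a median log2 fold change of -0.50. B and plasma cell markers summed to 65.2 to 68.8 CPM with DMSO and 42.2 to 46.7 CPM with NUP-17d, with 3 of 9 tested lower and 1 higher. Jchain, the joining chain of secreted antibodies, had 41.2, 42.1 and 43.8 CPM with DMSO and 20.6, 18.4 and 20.5 CPM with NUP-17d, and was singled out after its values were seen. Without Jchain the list summed to 23.2 to 24.9 CPM with DMSO and 23.4 to 26.1 CPM with NUP-17d, so the rest of the list was not lower as a sum. Mast cell and basophil markers summed to 212 to 228 CPM and 189 to 194 CPM, with 2 of 6 tested lower and 1 higher, and Tpsab1 and Mcpt4 had no reads.

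The summed levels of the other marker lists were not lower with NUP-17d. Their called counts, too, stand beside 16.4% higher and 18.9% lower among all tested genes. Neutrophil markers summed to 3938 to 4106 CPM with DMSO and 4018 to 4298 CPM with NUP-17d, with 2 of 9 higher and 1 lower. Macrophage markers summed to 1152 to 1259 CPM and 1257 to 1410.1 CPM, with 3 of 10 higher and 3 lower. Megakaryocyte markers rose in 5 of 8 and fell in 1, with sums of 453 to 500.5 CPM and 522 to 542 CPM, and progenitor markers rose in 2 of 7, with sums of 462 to 466 CPM and 481 to 501 CPM.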

How the data were processed

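Poly(A)-selected RNA of 3 DMSO and 3 NUP-17d samples was sequenced. The labels describe random priming and a DNBseq instrument, whereas the study's methods name a stranded Illumina kit, so whether reads keep their strand is uncertain. The authors deposited, for each sample, an expected count (reads assigned to each gene by estimation, without normalization, 27.8% to 28.5% of values not whole) and an FPKM value (that count per transcript length and library total). The submitters' processing notes name the mm10 build, and the aligner and counter are not given in the sources used here. Genes left out of a table were taken as 0. Groups came from the sample labels. No table was pooled.

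Counts were rounded, filtered (filterByExpr), scaled by TMM and tested with the quasi-likelihood test of edgeR 4.0.16 (R 4.3.3), with the Benjamini-Hochberg correction taken over the 12306 genes tested and a threshold of 0.05. DESeq2 1.42.0 and other scalings were alternatives. The test was checked on simulated counts with equal numbers of genes raised and lowered, so the check does not bear on the choice of scaling. Counting noise alone gave less than the observed spread: for libraries of a group, chi-square divided by its degrees of freedom was 1.83 to 4.54, so all were kept as separate samples. The members and lists were chosen with earlier results of these data known. Named genes were all members, up to 3 genes per list and direction with the lowest p among called genes whose groups did not overlap, the sensors Ern1, Eif2ak3 and Atf6, and Atf4, Ddit3 and Ppp1r15a. Other named genes, in the stress element and marker paragraphs, were picked after their values were seen. Older symbols were matched through RefSeq. The last 20 bases of 9 of 10 member windows were found on the same strand in a GENCODE transcript, those of Pdia4 were not. Protein features were not analysed here.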

Additional observations from a re-analysis of the deposited data

How the results depend on the processing

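With library totals only, no member was called lower and 6 were called higher, their median log2 fold change was 0.19, and 8 of 10 members changed sign: Hsp90b1 0.19, Calr 0.071, Canx 0.20, Pdia3 0.26, Pdia6 0.22, Dnajb9 0.058, Xbp1 0.072 and Herpud1 0.018. So did Prdx4 (0.018), Tmbim6 (0.083), Ern1 (0.072), Atf6 (0.15), Atf4 (0.0081) and Ddit3 (0.16). The numbers called higher and lower were then 36 and 0 for other ER folding factors, 24 and 2 for ERAD, 30 and 1 for translocation and glycosylation, 14 and 0 for sensors, 4 and 5 for PERK-ATF4 targets, 17 and 2 for cytosolic and 7 and 0 for mitochondrial chaperones. With totals that leave out hemoglobin genes, 5 members were higher and 1, Herpud1, was lower, the median was 0.076, and Hsp90b1 (0.068), Canx (0.084), Pdia3 (0.14), Pdia6 (0.10), Atf6 (0.032) and Ddit3 (0.047) changed sign. The numbers higher and lower were 27 and 0 for folding factors, 15 and 4 for ERAD, 9 and 0 for sensors, 7 and 7 for cytosolic and 5 and 1 for mitochondrial chaperones. They were 26 and 4 for translocation and glycosylation and 2 and 7 for PERK-ATF4 targets. The all-gene median was 0.28 and 0.16 under these scalings, which are shifts common to all genes. With totals alone 5.36% of all tested genes were called lower and 68.7% higher. Such shares were not counted for totals without hemoglobin genes, so the counts given for that scaling are descriptions only.

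DESeq2, no filter on low counts and the replicate block kept the call and sign of all 10 members. DESeq2 called 3 folding factors and 0 sensors higher. Over the tested genes, same-numbered libraries did not deviate together (correlations of -0.0324 to 0.0335). With 3 libraries per group this cannot exclude that the numbers pair the samples. With the replicate block the members' median was -0.07 with 4 lower. Leaving out 1 library in turn, 4 to 5 members were lower and 0 higher with a median of -0.10 to -0.05, the extra call being Hsp90b1 without DMSO library 1. The uncalled Pdia3 then ranged from -0.040 to 0.015 and Pdia4 from -0.024 to 0.052, and 3 to 5 folding factors (3 without DMSO library 2 or 3 or NUP-17d library 1) and 0 to 1 sensors (0 without NUP-17d library 2) were higher, with 2 to 3 sensors and 9 to 10 PERK-ATF4 targets lower. The 4 called members fell in all 6 such fits. Counts were highest for Calr and lowest for Dnajb9. The standard error of the log2 fold change was also largest for Dnajb9, though only slightly (0.0446 against 0.0434 for Pdia4).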
